A study of Arabidopsis thaliana with 12 samples.

Results

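Roots that overproduced the transcription factor ERF115 were set against roots that overproduced the same factor fused to a repression domain, across all genes with enough reads. The first group was 35S:ERF115, here ERF115OX, and the second 35S:ERF115-SRDX, here ERF115-SRDX, with 3 libraries each. These 6 libraries were taken by their genotype labels from the 12 of the series. The 3 libraries of WT-Col-0, here WT, gave a level to place each gene on, and no test was made against them. The remaining 3 libraries carried 35S:ERF114 and entered only the estimate of spread. Those 3 were taken by title, since their genotype label also names ERF115OX. All were made from poly(A) RNA of Arabidopsis thaliana roots, harvested from 4-day-old seedlings on dilute MS plates. Both transgenes were driven by the constitutive 35S promoter, so neither was limited to the cells in which ERF115 normally acts. The labels say neither how many independent transgenic lines nor how many separate cultures stand behind the libraries, so the p-values measure the spread between libraries, which may be technical.

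ERF115 is an AP2/ERF transcription factor known from the root stem cell niche, where it promotes division of quiescent centre cells and replacement of damaged cells, in part with the GRAS protein PAT1 and through the peptide hormone precursor PSK5. SRDX is a short peptide of the EAR type that recruits co-repressors, so that a fused activator holds down the genes it binds, even where related factors are present. The comparison sets an excess of the activator against an excess of its repressor form.

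The deposited values are normalized counts, reads per gene divided by a size factor for each library, and the 12 libraries held from 47242114 to 48343410 reads. On the first principal component, which took 67.0% of the variance, the 3 ERF115-SRDX libraries stood at 153, 106 and 147, against -52.3, -41.6 and -42.6 for ERF115OX and -58.0, -39.8 and -49.1 for WT. The 30 genes of a photosynthesis list took 1.17%, 0.855% and 0.894% of all counts in ERF115OX 1 to 3, against 0.0328%, 0.392% and 0.0353% in ERF115-SRDX 1 to 3 and 2.09%, 1.44% and 2.94% in WT 1 to 3. ERF115-SRDX 1 and 3 thus held the least green-tissue transcript, and ERF115-SRDX 2 stood between them and the ERF115OX and WT libraries. A share as low as that of ERF115-SRDX 2 was not limited to ERF115-SRDX, since 1 of the 3 ERF114 libraries held 0.375%. The shares of ERF115-SRDX 1 and 3 lay far below those of every other library. In bulk RNA, fewer cells of a type and less RNA per cell cannot be told apart, and the part of green tissue in the results below was not tested. Its values are instead given beside the results, with those against ERF115-SRDX 2 alone where they change a call, or a value or count by more than 1.5 times. WT 3 also differed from WT 1 and 2: for the 23 genes averaging 1000 or more normalized counts in ERF115-SRDX but under 10 in ERF115OX, a rule chosen after the values were seen, WT 3 stood at a median of 0.781% of the ERF115-SRDX mean (range 0.479% to 1.56%), WT 1 at 0.0826% and WT 2 at 0.210%.

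**Figure D1:**
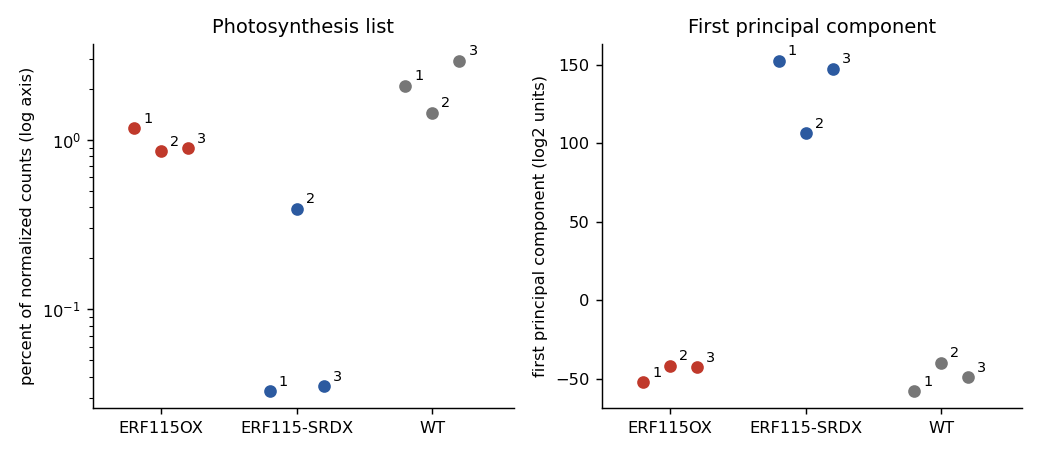
Left, share of all normalized counts (percent, log axis) taken by the 30 genes of the photosynthesis list, 1 point per library, for ERF115OX, ERF115-SRDX and WT from left to right. Right, position of the same libraries on the first principal component of log2 values. ERF115-SRDX 1 and 3, at 0.0328% and 0.0353%, lay lowest in photosynthetic transcript, ERF115-SRDX 2 at 0.392% stood apart from them, and all 3 lay far from ERF115OX and WT on the component.

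The transgene was read first. ERF115 itself (AT5G07310) had 34638, 38360.1 and 36973 normalized counts in ERF115OX, against 84451, 88807 and 83518 in ERF115-SRDX and 4.86, 23.4 and 561 in WT. Both lines thus carried the transcript at high level in every library, the groups did not overlap, and ERF115-SRDX held the more of it. All log2 differences are ERF115OX minus ERF115-SRDX, fitted on log2(normalized count + 1) and given with the SE where an error is shown. The fitted log2 difference of -1.22 ± 1.14 was not called (limma, adjusted p = 0.385). Its SE comes from the pooled spread of all 12 libraries, and WT 3 was far above WT 1 and 2. Reads of the endogenous gene and of the transgene cannot be told apart in these counts.

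The activator and the repressor line differed at most of the measured genes. Of 23375 genes tested with limma, 13097 (56.0%) passed an adjusted p of 0.05, of which 6928 (29.6% of those tested) were higher in ERF115OX and 6169 (26.4%) lower. A log2 difference of at least 1 was reached by 2483 called genes higher in ERF115OX (10.6%) and 1695 lower (7.25%). The median log2 difference over all genes tested was 0.03, and these shares are the background for every gene list below where all libraries were used. Counts from the other fits belong beside the calls of those fits, given next. Without ERF115-SRDX 2 the calls came to 6677 higher (28.6%) and 5699 lower (24.4%), without ERF115-SRDX 1 and 3 to 4457 higher (19.1%) and 4503 lower (19.3%), and with the mean log2 value of the photosynthesis list as a covariate to 3897 higher and 4273 lower.

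For most of the large differences ERF115-SRDX lay further from WT than ERF115OX did. Among called genes with a log2 difference of at least 1, the WT mean lay nearer to ERF115OX than to ERF115-SRDX for 2146 of 2483 higher genes (86.4%) and for 1473 of 1695 lower genes (86.9%). Of the 6720 called genes whose ERF115OX libraries all lay above all ERF115-SRDX libraries, the WT libraries lay between the lines for 1575 (23.4%), overlapped ERF115OX for 2376 (35.4%) and overlapped ERF115-SRDX for 1137 (16.9%). For 1082 of them (16.1%) WT lay above both lines, and for 189 (2.81%) below both. Of the 6039 called genes with the reverse order, WT lay between for 1402 (23.2%), overlapped ERF115OX for 2671 (44.2%) and overlapped ERF115-SRDX for 942 (15.6%). For 600 of them (9.94%) WT lay below both lines, and for 115 (1.90%) above both. Libraries of the lines did not overlap for 33.3% of all genes tested in the upward and 30% in the downward direction. The difference between the lines therefore holds genes for which WT overlapped a single line and genes that stood on opposite sides of WT. It also holds genes for which both lines lay on the same side of WT.

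**Figure D2:**
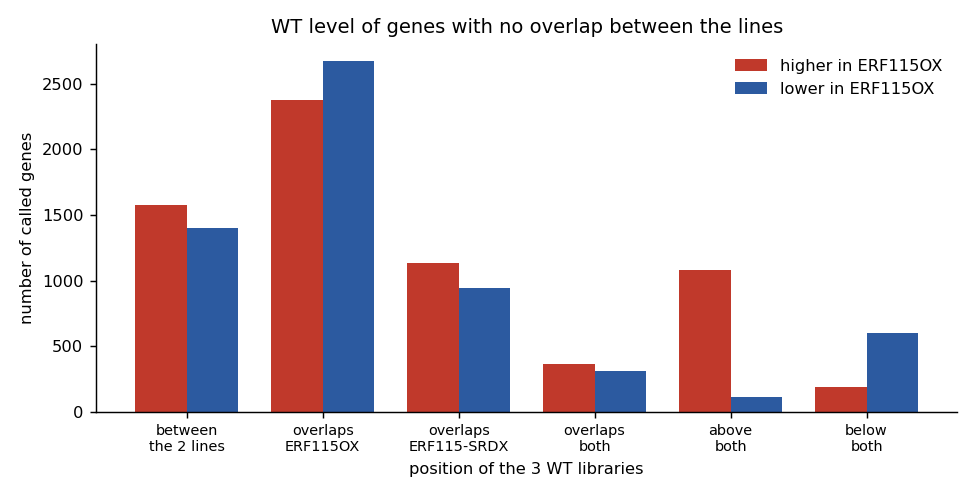
Number of called genes with no overlap between ERF115OX and ERF115-SRDX libraries (vertical axis), by where the 3 WT libraries lay (horizontal axis), with bars for genes higher and genes lower in ERF115OX. In both directions the largest class is overlap with ERF115OX, with 2376 and 2671 genes, and the WT libraries lay strictly between the lines for 1575 and 1402.

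The phytosulfokine genes, which encode the precursors of a sulfated growth peptide together with its receptors and its processing enzyme, split by precursor. Of 8 tested, 3 were higher in ERF115OX and 3 lower. PSK5 (AT5G65870) had 1251, 1418 and 1329.7 normalized counts in ERF115OX, against 142, 143 and 145 in ERF115-SRDX and 302, 294 and 274 in WT. The WT libraries lay strictly between the lines, and the difference was 3.21 ± 0.08 on the log2 scale (SE, 3 libraries each, limma adjusted p = 1.32e-11). The ERF115-SRDX 3 value of PSK5 corresponds to 146.8 reads and is the only value of the table that is not a whole number of reads. A second precursor gene, PSK1 (AT1G13590), had 1045, 994 and 1047 in ERF115OX, against 199.5, 167 and 191 in ERF115-SRDX and 519, 604 and 533 in WT, again with WT between (2.47 ± 0.09, adjusted p = 5.31e-10). PSK2 (AT2G22860) had 295, 294 and 291 in ERF115OX, against 61.5, 77.3 and 89.0 in ERF115-SRDX and 128, 83.9 and 134 in WT, so that WT overlapped ERF115-SRDX (1.95 ± 0.20, adjusted p = 3.09e-06). The receptor went the other way: PSKR1 (AT2G02220) had 3416, 3509 and 3449.7 in ERF115OX, against 10097, 10551 and 9252 in ERF115-SRDX and 2972, 3336 and 3420.1 in WT (-1.52 ± 0.06, adjusted p = 1.01e-09). The tyrosylprotein sulfotransferase gene TPST (-0.19) and PSK3 (-0.58) were lower as well, while PSK4 (-0.18 ± 0.15) and PSKR2 (0.14 ± 0.08) were not called. The TPST call was lost in the fits with fewer libraries, while its difference stayed close. It was -0.20 without ERF115-SRDX 2 (limma adjusted p = 0.0541) and -0.17 against ERF115-SRDX 2 alone.

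The partner family and the relatives of ERF115 went both ways. All 6 GRAS factors of the PAT1 branch were called, 2 higher and 4 lower. PAT1 (AT5G48150) had 2518, 2503 and 2563 normalized counts in ERF115OX, against 5589, 5654 and 5142 in ERF115-SRDX and 2413, 2447 and 2331 in WT, a difference of -1.11 ± 0.05 (limma adjusted p = 1.34e-09). WT lay below both lines for PAT1, close to ERF115OX. SCL13 (-0.48), SCL5 (-0.29) and SCL1 (-0.22) were also lower, and SCL21 (0.24) and SCL8 (0.31) higher. Against ERF115-SRDX 2 alone both of the higher calls were lost, at differences of 0.19 for SCL21 and 0.24 for SCL8. Among the 6 tested factors of ERF group X, the subfamily of ERF115, RAP2.6 (AT1G43160) was higher (1.29 ± 0.16, adjusted p = 2.51e-05) and Rap2.6L (AT5G13330), a factor of wound response and shoot regeneration, lower (-0.75 ± 0.08, adjusted p = 4.98e-06). ERF114 (AT5G61890), a close relative, had 2.01, 92.5 and 104 in ERF115OX, against 24.2, 12.5 and 22.7 in ERF115-SRDX and 35.0, 10.7 and 12.9 in WT. Its ERF115OX libraries lay on both sides of the other groups and the difference of 0.63 ± 1.02 was not called. ABR1 (-0.55 ± 0.31) and RRTF1 (-0.21 ± 0.14) were not called either.

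Most tested members of a list of wounding and regeneration factors stood higher in the activator line. Of 18 named, 15 were matched to a measured gene, while WIND2, WIND3 and WIND4 had no match. Of the 15, 8 had enough reads to be tested, and 6 of those were higher and 0 lower, with a median log2 difference of 0.86. RRTF1, a tested member, was not called (-0.21 ± 0.14), and Rap2.6L, lower as described above, was not on the list. RAP2.4 (AT1G78080), known as WIND1, a driver of dedifferentiation at wounds, had 11470.5, 11135 and 11612 normalized counts in ERF115OX, against 3074, 3045 and 2965 in ERF115-SRDX and 7132, 7746 and 7090.3 in WT. Its 3 groups were fully separated with WT between, at a difference of 1.91 ± 0.05 (limma adjusted p = 1.4e-11). The shoot-regeneration gene CUC2 (AT5G53950) had 40.3, 24.4 and 59.9 in ERF115OX, against 10.1, 10.4 and 15.8 in ERF115-SRDX and 32.1, 32.2 and 33.9 in WT (1.64 ± 0.33, adjusted p = 0.00111), with WT overlapping ERF115OX. The PLETHORA genes AIL5, also called PLT5 (1.05), and AIL6, also called PLT3 (0.68), which act in pluripotency and lateral organ initiation, were higher too, as were the heat shock factor gene HSF4, also called HSFB1 (0.56), and NAC096 (1.55). All 6 of these calls stood against ERF115-SRDX 2 alone as well.

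Stem cell niche regulators were mixed. WOX5 (AT3G11260), the marker and regulator of the quiescent centre, had 87.6, 83.4 and 72.3 normalized counts in ERF115OX, against 34.3, 27.2 and 47.5 in ERF115-SRDX and 46.7, 57.6 and 48.8 in WT, so that ERF115OX lay above both other groups, which overlapped (1.17 ± 0.26, limma adjusted p = 0.00206). The GRAS gene SCL3 (1.35 ± 0.07, adjusted p = 7.6e-09) and the zinc finger gene NUC (0.86 ± 0.08, adjusted p = 1.9e-06) were higher with WT between, SHR (0.34) was slightly higher, and the SHR partner genes MGP (-1.06 ± 0.07, adjusted p = 5.39e-08) and JKD (-0.24) were lower. SCR was not called (-0.12 ± 0.06, adjusted p = 0.0935). The master stem cell regulators PLT1 (-0.02 ± 0.16) and BBM (-0.13 ± 0.26) were not called either, and PLT2 was lower with overlapping libraries (-0.49 ± 0.17, adjusted p = 0.028), a call lost against ERF115-SRDX 2 alone (adjusted p = 0.205).

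Most called genes of cell division were lower in the activator line. Of 25 kinesins and kinesin-like proteins, taken by product name and not limited to division, 19 were lower in ERF115OX and 2 higher (median -0.56). That list was not complete, since the kinesin gene HIK, given below, was missed by the name rule and counted among the mitotic genes. Of 27 replication genes 17 were lower and 2 higher (median -0.34), and of 30 mitotic genes 15 were lower and 1 higher (median -0.24). POK2 (AT3G19050), which guides the division plane, had 639, 610.0 and 562 normalized counts in ERF115OX, against 1486, 1385 and 1464 in ERF115-SRDX and 1221, 1158 and 1074 in WT (-1.26 ± 0.11, limma adjusted p = 6.69e-07). WT lay between the lines for POK2 and closer to ERF115-SRDX. The spindle assembly gene TPX2 (AT1G03780) had 342, 351 and 346 in ERF115OX, against 743, 718 and 850.2 in ERF115-SRDX and 686, 669 and 656 in WT (-1.15 ± 0.13, adjusted p = 9.4e-06). FAS1 (AT1G65470), a subunit of the chromatin assembly complex CAF-1, had 491, 469.7 and 489.7 in ERF115OX, against 1019.8, 1009.8 and 985 in ERF115-SRDX and 822, 764 and 817 in WT (-1.05 ± 0.07, adjusted p = 6.8e-08). All of these placed ERF115OX lowest and WT between. FAS2 (-0.97), the helicase subunits MCM3 (-0.77) and MCM5 (-0.61), the kinesin gene HIK (-0.91) and the mitotic activator MYB3R1, listed as PC-MYB1 (-0.48), were lower as well, CYCB1;1 slightly so (-0.32 ± 0.08, adjusted p = 0.00585), and the mitotic kinase genes CDKB1;1 (0.07 ± 0.07) and CDKB2;2 (-0.00 ± 0.08) were not called. Against ERF115-SRDX 2 alone, the medians were -0.57 for kinesins, -0.34 for replication genes and -0.17 for mitotic genes, and CYCB1;1 lost its call. With the photosynthesis covariate 15 kinesins, 11 replication genes and 4 mitotic genes were lower, beside 4273 of all 23375 genes. The mitotic genes then did not exceed the share of all genes, nor did they against ERF115-SRDX 2 alone. Of 9 D-type cyclins, which drive entry into the cycle, 4 were higher, 4 were not called and 1 was lower. The lower one was CYCD6;1, the cyclin of formative ground tissue divisions (-1.22 ± 0.26, adjusted p = 0.00135). Of 18 DNA damage response genes 6 were lower (33.3%, beside 26.4% of all genes tested) and 0 higher.

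**Figure D3:**
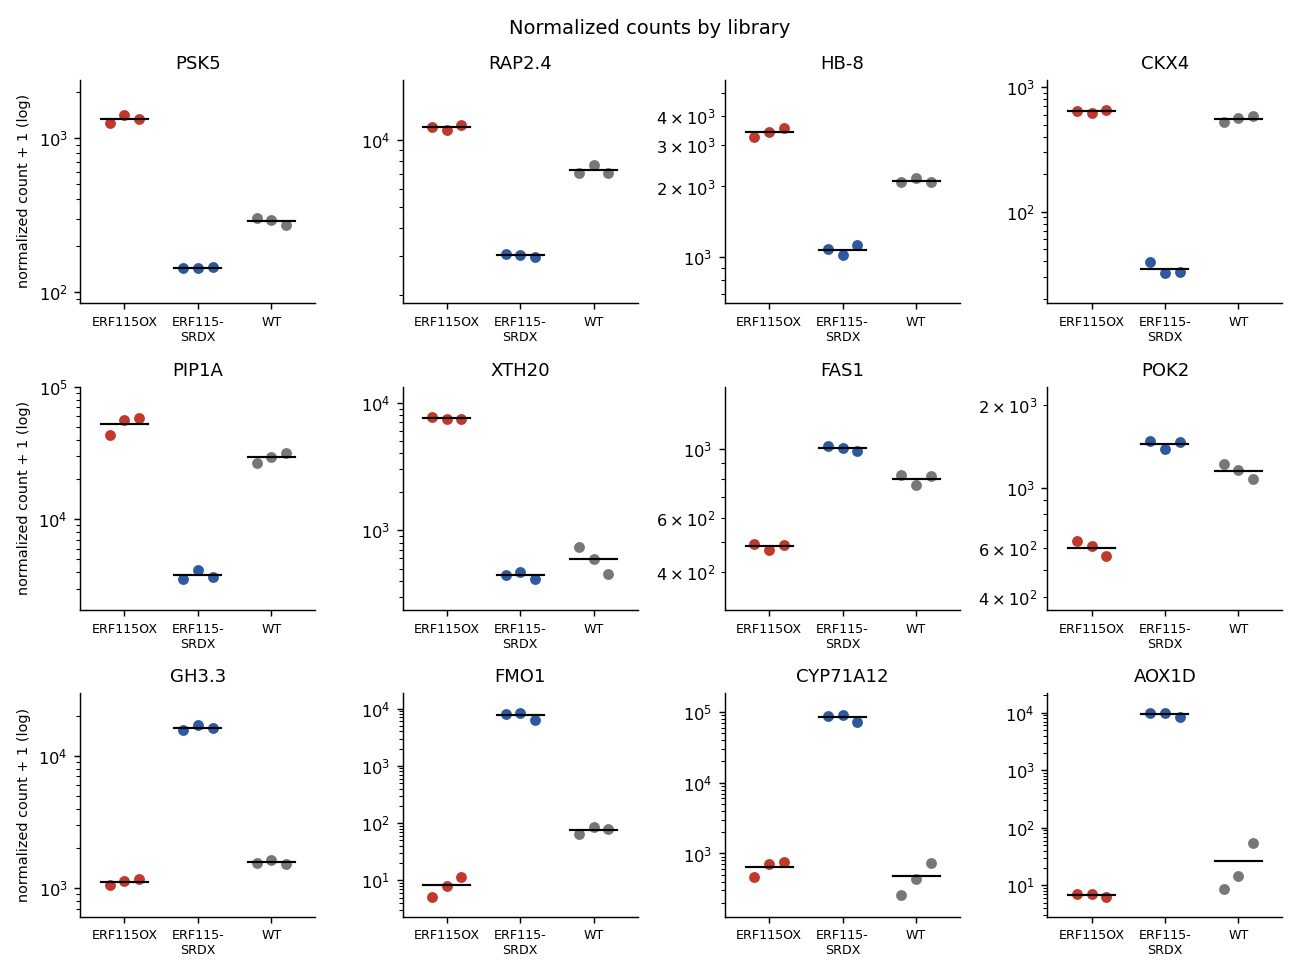
Normalized counts (log axis, 1 added) of 12 genes in each library, with ERF115OX, ERF115-SRDX and WT from left to right in each panel and a bar at each group mean. PSK5, RAP2.4 and HB-8 were highest in ERF115OX and lowest in ERF115-SRDX with WT between, FAS1 and POK2 had the reverse order, and FMO1, CYP71A12, AOX1D and GH3.3 were high in ERF115-SRDX alone.

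The largest differences were genes that were near silent in ERF115OX and abundant in ERF115-SRDX. PNP-A (AT2G18660), which encodes a secreted plant natriuretic peptide, had 0, 0 and 1.03 normalized counts in ERF115OX, against 13628, 16596 and 15944 in ERF115-SRDX and 9.72, 3.90 and 99.6 in WT. With 1 read over the 3 ERF115OX libraries, the ratio of ERF115-SRDX to ERF115OX was 45279, with an exact 95% counting interval from 8126 to 1788480. AT1G51920, of unknown function, had no read in ERF115OX, against 4471, 5038 and 4279 in ERF115-SRDX and 0, 7.80 and 35.9 in WT, which makes it at least 1503-fold lower in ERF115OX at a floor of 3 reads per library. AOX1D (AT1G32350), an alternative oxidase of mitochondria, had 6.04, 6.10 and 5.17 in ERF115OX, against 9757, 9977 and 8514 in ERF115-SRDX and 7.78, 13.7 and 53.8 in WT (-10.44 ± 0.64, limma adjusted p = 3e-08). In all of these the ERF115-SRDX libraries were alike and WT lay near ERF115OX, with WT 3 the highest WT library. The other genes among the 10 most strongly lower were the lectin kinase genes AT2G29220 and AT2G29250, AT1G55230, the wall-associated kinase gene WAK3, AT3G55790, the secreted lipase gene GLIP1 and the extensin-like gene AT1G26240. Each had at most 10 reads over the ERF115OX libraries and at least 8611 over the ERF115-SRDX libraries.

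Many genes of immunity were lower in ERF115OX as well. Of 16 genes of pattern recognition, 14 were lower in ERF115OX and 0 higher, with a median log2 difference of -1.08. Of 17 salicylate and systemic immunity genes 11 were lower and 3 higher (median -1.25). FMO1 (AT1G19250), which makes the systemic immune signal N-hydroxypipecolic acid, had 4.03, 7.12 and 10.3 normalized counts in ERF115OX, against 8108, 8486 and 6287 in ERF115-SRDX and 64.2, 83.9 and 76.7 in WT (-9.93 ± 0.26, limma adjusted p = 2.46e-11). The groups were fully apart, with the WT libraries between and far nearer to ERF115OX. CBP60G (AT5G26920), a regulator of salicylate synthesis, had 36.3, 45.8 and 31.0 in ERF115OX, against 4460.1, 3668 and 3259 in ERF115-SRDX and 52.5, 72.2 and 78.7 in WT (-6.62 ± 0.19, adjusted p = 4.5e-11). The salicylate synthesis genes EDS16, also called ICS1 (-2.02), EDS5 (-2.02) and PBS3 (-6.73) were lower, and so were EDS1 (-1.52), PAD4 (-1.25) and SAG101 (-2.40), which form the hub of intracellular immune receptors. The salicylate receptor gene NPR1 (-0.09 ± 0.06) and SARD1 (0.03 ± 0.10), a close relative of CBP60G, were not called. GRXS13 (AT1G03850), a glutaredoxin gene, was higher instead, with 4570.3, 6092 and 5614 in ERF115OX, against 245, 249.6 and 303 in ERF115-SRDX and 4069, 4362 and 4759 in WT (4.34 ± 0.11, adjusted p = 1.61e-11).

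Genes of immune signalling at the cell surface were lower too. The flagellin-induced kinase gene FRK1 (AT2G19190) had 22.2, 40.7 and 25.8 normalized counts in ERF115OX, against 1573, 1730.3 and 1331 in ERF115-SRDX and 74.8, 64.4 and 56.8 in WT (-5.70 ± 0.22, limma adjusted p = 5.71e-10). The flagellin receptor gene FLS2 (AT5G46330) had 35.3, 14.2 and 12.4 in ERF115OX, against 375, 458 and 419 in ERF115-SRDX and 284, 74.1 and 241 in WT (-4.42 ± 0.52, adjusted p = 1.23e-05), with wide spread in WT. The danger-peptide gene PROPEP3 (-4.95), the receptor gene EFR (-1.76) and the adaptor gene SOBIR1 (-1.62) were lower as well, and the co-receptor gene BAK1 was not called (0.03 ± 0.05). Of 12 wall-associated kinases 8 were lower and 2 higher. Of 28 cysteine-rich receptor-like kinases 15 were lower, with CRK11 at -4.60 ± 0.11 and CRK36 at -5.73 ± 0.27, and 6 higher, with CRK29 at 2.13 ± 0.06.

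Camalexin, the indole phytoalexin of Arabidopsis, had most of its pathway lower in ERF115OX, 7 of 10 genes against 2 higher. CYP71A12 (AT2G30750), a cytochrome P450 of the pathway, had 470.4, 718 and 762 normalized counts in ERF115OX, against 88918, 91035 and 73092 in ERF115-SRDX and 256, 430.2 and 729 in WT (-7.04 ± 0.29, limma adjusted p = 9.34e-10). PAD3 (AT3G26830), which makes the last step, had 379, 509 and 464 in ERF115OX, against 39633, 40263 and 33959 in ERF115-SRDX and 553, 571 and 675 in WT (-6.40 ± 0.17, adjusted p = 3.12e-11). WRKY33 (AT2G38470), a transcription factor that activates the pathway, had 1234, 1417 and 1537 in ERF115OX, against 10284, 10274 and 9664 in ERF115-SRDX and 1704, 1921 and 1936 in WT (-2.86 ± 0.10, adjusted p = 1.83e-10). The difference was smaller at the shared start of the pathway, where CYP79B2 stood at -1.19 and CYP79B3 at 0.22. CYP79B3 was thus higher in ERF115OX, a call lost against ERF115-SRDX 2 alone. Among 63 WRKY factors 31 were lower and 18 higher, with WRKY55 (-9.75) and WRKY71 (-5.83) at the low end and WRKY57 (3.68) and WRKY42 (2.77) among the higher. The glutathione transferases of the tau class, which detoxify electrophiles, had 17 of 26 members lower and 6 higher, with GSTU10 at -4.51 ± 0.11 and GSTU5 at 2.73 ± 0.12. Of 10 mitochondrial stress genes 7 were lower, among them BCS1 (-2.12) and AOX1A (-1.44), and 1 higher. The NADPH oxidase genes RBOHA (-2.57) and RBOHD (-0.81), sources of the oxidative burst, were lower and RBOHB (1.13) higher.

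**Figure D4:**
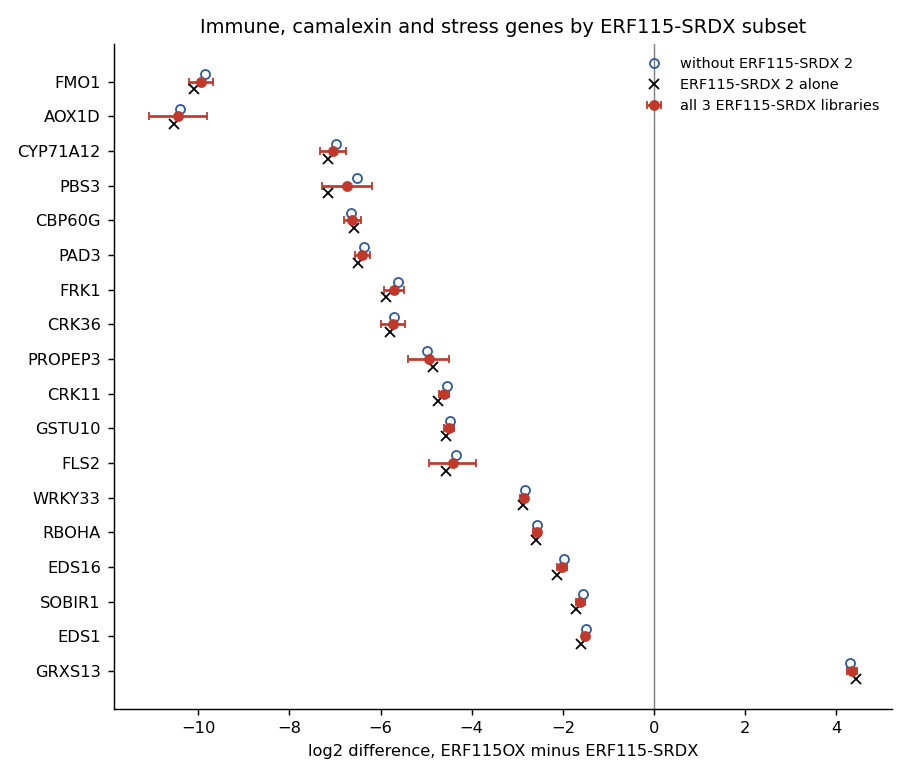
Fitted log2 difference, ERF115OX minus ERF115-SRDX (horizontal axis), of 18 immune, camalexin and stress genes, from all 3 ERF115-SRDX libraries (filled circles, bars are the SE), without ERF115-SRDX 2 (open circles) and from ERF115-SRDX 2 alone (crosses). The 3 fits lay within 0.64 of each other for every gene plotted, all negative except GRXS13 at 4.34.

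For pattern recognition, salicylate and camalexin genes and wall-associated kinases, the counts of lower genes were nearly the same against either subset of ERF115-SRDX. Against ERF115-SRDX 2 alone, 13 pattern recognition genes, 11 salicylate genes, 7 camalexin genes and 8 wall-associated kinases were lower, against 13, 11, 7 and 8 against ERF115-SRDX 1 and 3. The median of the cysteine-rich receptor-like kinases did move, from -0.36 without ERF115-SRDX 2 to -2.11 against ERF115-SRDX 2 alone. The trace of ERF115-SRDX-high transcripts in WT 3 bears on the WT level of the near-silent genes, and its part in placing WT between the lines for them was not tested.

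The largest differences in the other direction were smaller and of mixed kind. M17 (AT2G41260), of the late embryogenesis abundant type, had 529, 548 and 353 normalized counts in ERF115OX, against 1.01, 2.09 and 0 in ERF115-SRDX and 117, 18.5 and 24.9 in WT. Over 3 reads in ERF115-SRDX, the ratio of ERF115OX to ERF115-SRDX was 471 with an exact 95% counting interval from 161 to 2289. The defensin-like gene AT3G59930 had 4113, 5657 and 5763 in ERF115OX, against 21.2, 20.9 and 25.7 in ERF115-SRDX and 1695, 1529.6 and 1635 in WT (7.77 ± 0.16, limma adjusted p = 6.86e-12). EARLI1 (AT4G12480) and AZI1 (AT4G12470), neighbouring lipid transfer protein genes of which AZI1 acts in systemic priming of defence, stood at 7.27 ± 0.56 and 6.77 ± 0.27. AZI1 had 1631, 1719 and 1970.2 in ERF115OX, against 12.1, 10.4 and 27.7 in ERF115-SRDX and 1183, 1135 and 1203 in WT, so that WT lay between, near ERF115OX. The other genes among the 10 were AT4G07820, RAP2.9, AT5G44572, AT3G21352, AT1G29090 and the squalene epoxidase gene SQP1, whose difference of 6.53 was 3.60 against ERF115-SRDX 2 alone.

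Genes with WT strictly between the lines included PSK5, PSK1 and RAP2.4, described above. Ranked by the smaller of the steps from WT to either line, the top 8 higher genes were M17, the defensin-like genes AT4G11393 and AT5G33355, the receptor kinase gene AT3G46370, the glutamate receptor gene GLR2.3, PLAT3, RAP2.9 and AT4G33467. The top 8 lower genes were AT2G29220, PNP-A, FMO1, AT2G04070, AT3G13840, PBS3, MYB62 and AT5G51465. GLR2.3 (AT2G24710) had 28.2, 36.6 and 22.7 normalized counts in ERF115OX, against no read in ERF115-SRDX and 5.83, 3.90 and 5.98 in WT, at least 9.60-fold higher in ERF115OX than in ERF115-SRDX at a floor of 3 reads per library. Many of these ranked genes rest on few reads in a group.

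Root hair genes were higher in the activator line as a group. Of 30 root hair growth genes 24 were higher and 1 lower (median 0.76), and of 7 bHLH factors that switch hair growth on 6 were higher and 0 lower. RSL4 (AT1G27740), which sets final hair length, had 421, 456 and 465 normalized counts in ERF115OX, against 248, 256 and 256 in ERF115-SRDX and 329, 307 and 342 in WT, with WT between (0.82 ± 0.09, limma adjusted p = 4.79e-06). The hair wall protein gene PRP3 (AT3G62680) had 8241, 7532 and 9858 in ERF115OX, against 3177, 2790.3 and 3528 in ERF115-SRDX and 3235, 3782 and 3806 in WT (1.43 ± 0.13, adjusted p = 9.47e-07). The hair expansin gene EXPA7 (AT1G12560) had 3246, 3537 and 3449 in ERF115OX, against 1947, 2122 and 1993 in ERF115-SRDX and 2015, 2260.3 and 2104 in WT (0.75 ± 0.06, adjusted p = 6.87e-07). For PRP3 and EXPA7 WT overlapped ERF115-SRDX, so it was ERF115OX that stood apart. RSL2 (0.80) and RHD6 (0.42) were higher, and the hair genes RHS18 (1.94), RHS16 (1.97) and PRP1 (2.90) more strongly so. Of 11 factors that pattern the epidermis into hair and non-hair cells 0 were higher and 6 were lower, among them WER (-0.77 ± 0.10), which specifies non-hair fate, and TRY (-2.72 ± 0.37), an inhibitor of it, while CPC was not called (-0.16 ± 0.14).

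In the vascular cylinder, regulators of procambium were higher in ERF115OX and enzymes of the secondary wall mostly lower. Of 21 procambium and cambium factors 12 were higher and 3 lower (median 0.44), and 12 were also higher against ERF115-SRDX 2 alone. HB-8 (AT4G32880), an early marker of procambium, had 3251, 3415 and 3557 normalized counts in ERF115OX, against 1087, 1019 and 1123 in ERF115-SRDX and 2078, 2181 and 2084 in WT (1.66 ± 0.05, limma adjusted p = 1.26e-10). MP (AT1G19850), the auxin response factor upstream of HB-8, had 2544, 2181 and 2048 in ERF115OX, against 1115, 979.5 and 1152 in ERF115-SRDX and 1789, 1695 and 1485 in WT (1.06 ± 0.09, adjusted p = 6.79e-07). WT lay between the lines for both. The cambium genes WOX4 (1.51 ± 0.27) and PXY (0.81 ± 0.05), a peptide receptor, were higher too. Of 22 secondary wall and xylem genes 12 were lower, such as the cellulose synthase gene CESA4 (-0.51), and 4 higher, with FRA8 at 1.92 ± 0.10. The xylem vessel switch VND7 was higher (1.52 ± 0.14, adjusted p = 1.71e-06) and SND3, listed as NAC010, lower (-1.86 ± 0.10, adjusted p = 7.6e-09).

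Auxin genes differed between the lines at several levels. The Aux/IAA repressors, most of them early auxin response genes, were higher in ERF115OX for 19 of 27 and lower for 4 (median 0.49). IAA14 (AT4G14550), which gates lateral root initiation, had 1073, 1039 and 1097 normalized counts in ERF115OX, against 321, 400.0 and 318 in ERF115-SRDX and 778, 822 and 849 in WT (1.63 ± 0.08, limma adjusted p = 6.57e-09). IAA2 (1.34 ± 0.10) and IAA1 (1.21 ± 0.12) were higher, with WT overlapping ERF115OX. The GH3 amido synthetases, several of which inactivate auxin while JAR1 and PBS3 act in jasmonate and salicylate metabolism, went both ways. GH3.3 (AT2G23170) had 1053, 1126 and 1175 in ERF115OX, against 15689, 17182 and 16100.2 in ERF115-SRDX and 1558, 1645 and 1523 in WT, a difference of -3.87 ± 0.06 (adjusted p = 1.69e-12) with WT between and far nearer to ERF115OX. Of 18 GH3 genes 5 were lower in ERF115OX and 10 higher, among the higher ones BRU6 (1.41), WES1 (1.32) and GH3.17 (0.72). In synthesis the tryptophan pathway genes ASA1 (-1.12) and ASB1 (-1.50) and the auxin-forming enzyme YUC9 (-1.72) were lower and YUC8 (1.11) higher, and in transport AUX1 (0.68) was higher and PIN2, listed as EIR1, was not called (-0.06 ± 0.07). Of the lateral root genes, LRP1 (1.94 ± 0.13) and LBD16 (1.54 ± 0.12) were higher, and PUCHI (-1.08 ± 0.17) and LBD29 (-1.22 ± 0.28) lower, the LBD29 call being lost against ERF115-SRDX 2 alone (limma adjusted p = 0.0559).

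Cytokinin genes differed in both breakdown and synthesis. CKX4 (AT4G29740), a cytokinin oxidase that degrades the hormone, had 642, 613 and 654 normalized counts in ERF115OX, against 38.3, 31.3 and 31.6 in ERF115-SRDX and 522, 558 and 588 in WT (4.20 ± 0.10, limma adjusted p = 1.32e-11). WT was close to ERF115OX, and all 9 libraries kept to their group. The synthesis gene IPT3 (AT3G63110) had 814, 772 and 782 in ERF115OX, against 193, 227 and 245 in ERF115-SRDX and 414, 442 and 402 in WT (1.83 ± 0.10, adjusted p = 7.98e-09). IPT5 (1.49) and the activating enzyme gene LOG2 (2.85) were higher and LOG5 (-3.02) and LOG1 (-2.06) lower. The response regulators ARR9 (1.00), RR5, also called ARR5 (0.87), and ARR4 (0.61), which are induced by cytokinin and damp its signal, were higher, and ARR15 was lower (-1.14 ± 0.41, adjusted p = 0.0329), a call lost both without ERF115-SRDX 2 (adjusted p = 0.0568) and against ERF115-SRDX 2 alone (adjusted p = 0.213).

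Ethylene and jasmonate genes were called in both directions. Of 25 ethylene synthesis and signalling genes 5 were higher in ERF115OX and 7 lower, and against ERF115-SRDX 2 alone 1 was higher and 6 lower. Of 18 JAZ and jasmonate response genes 6 were higher and 7 lower. Of 12 jasmonate synthesis genes 0 were higher and 5 lower, but 3 were higher and 5 lower without ERF115-SRDX 2. ACS6 (AT4G11280), an enzyme of ethylene synthesis induced by stress, had 491, 511 and 511 normalized counts in ERF115OX, against 3041, 2689 and 2816 in ERF115-SRDX and 722, 679.9 and 642 in WT (-2.49 ± 0.07, limma adjusted p = 3.19e-11). The core ethylene signalling genes ETR1 (-0.01 ± 0.07) and CTR1 (0.00 ± 0.04) were not called. Among the JAZ repressors of jasmonate signalling, JAZ5 (-2.62 ± 0.25) and JAZ1 (-1.51 ± 0.10) were lower, and JAZ6 (1.54 ± 0.15) and JAZ9, listed as TIFY7 (4.35 ± 0.42), higher. ORA59, an integrator of ethylene and jasmonate, had 52.4, 54.9 and 62.0 in ERF115OX, against 0, 4.18 and 7.91 in ERF115-SRDX and 64.2, 52.7 and 42.8 in WT (4.00 ± 0.80, adjusted p = 0.00099).

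Genes of water transport and wall loosening were more often higher than lower in the activator line. Of 30 aquaporins, the water channels of plasma membrane and tonoplast, 19 were higher in ERF115OX and 5 lower, with a median of 0.92. PIP1A (AT3G61430) had 43637, 56407 and 58215 normalized counts in ERF115OX, against 3577, 4146 and 3688 in ERF115-SRDX and 26724, 29565 and 31674 in WT (3.78 ± 0.11, limma adjusted p = 5.16e-11). PIP2A (AT3G53420) had 89018, 111093 and 112536 in ERF115OX, against 13309, 14293 and 13581 in ERF115-SRDX and 55349, 60089 and 60947 in WT (2.92 ± 0.11, adjusted p = 3.87e-10). Both had WT between the lines, and among the lower members the plasma membrane channel PIP2;4 stood at -0.64 ± 0.11. Of the wall-loosening genes, 13 of 25 expansins were higher and 5 lower, and 14 of 30 xyloglucan endotransglucosylases were higher and 7 lower. XTH20 (AT5G48070), known from tissue reunion after cutting, had 7717, 7478 and 7514 in ERF115OX, against 445, 471 and 410.3 in ERF115-SRDX and 739, 588 and 449 in WT, so that ERF115OX alone was high (17.1-fold over ERF115-SRDX, adjusted p = 1.14e-10). The expansin gene EXP3 had 2207, 1851 and 2049.8 in ERF115OX, against 76.6, 260.0 and 81.1 in ERF115-SRDX and 1523, 885 and 1249 in WT, and its difference was 4.67 without ERF115-SRDX 2 and 2.96 against ERF115-SRDX 2 alone.

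Of 15 nitrate genes 10 were higher in ERF115OX and 5 lower, and against ERF115-SRDX 2 alone 8 were higher and 3 lower. Of 23 phosphate genes 12 were higher and 4 lower, and against ERF115-SRDX 2 alone 7 were higher and 3 lower. Of 21 iron and coumarin genes 11 were higher and 6 lower, but against ERF115-SRDX 2 alone 6 were higher and 6 lower, so that neither direction led. NRT1.1 (AT1G12110), the nitrate transporter and sensor, had 26804, 32801 and 35800.5 normalized counts in ERF115OX, against 6282, 7810.1 and 7083 in ERF115-SRDX and 20511, 21470.1 and 20326 in WT (2.17 ± 0.10, limma adjusted p = 1.9e-09). LBD38 (AT3G49940), a nitrate-induced repressor, had 8623, 8684 and 9085 in ERF115OX, against 1986, 2005 and 1948 in ERF115-SRDX and 5096, 5553 and 5180.0 in WT (2.15 ± 0.05, adjusted p = 6.92e-12). WT lay between for both. The xylem loading transporter PHO1 (1.41 ± 0.06) and the uptake transporter PHT1;1 (1.28 ± 0.10) of phosphate were higher, whereas the starvation marker SPX3 (AT2G45130) had 24.2, 10.2 and 14.5 in ERF115OX, against 509, 493 and 413 in ERF115-SRDX and 8.75, 10.7 and 7.97 in WT (-4.85 ± 0.28, adjusted p = 2.02e-08). For iron, the uptake transporter gene IRT1 (0.90 ± 0.16) and NAS1 (1.60 ± 0.15), for the chelator nicotianamine, were higher, and F6'H1, the first enzyme of coumarin synthesis (AT3G13610), had 1988, 2236 and 2379 in ERF115OX, against 23123, 24198 and 19079 in ERF115-SRDX and 2617, 2836 and 3106 in WT (-3.33 ± 0.10, adjusted p = 5.58e-11).

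**Figure D5:**
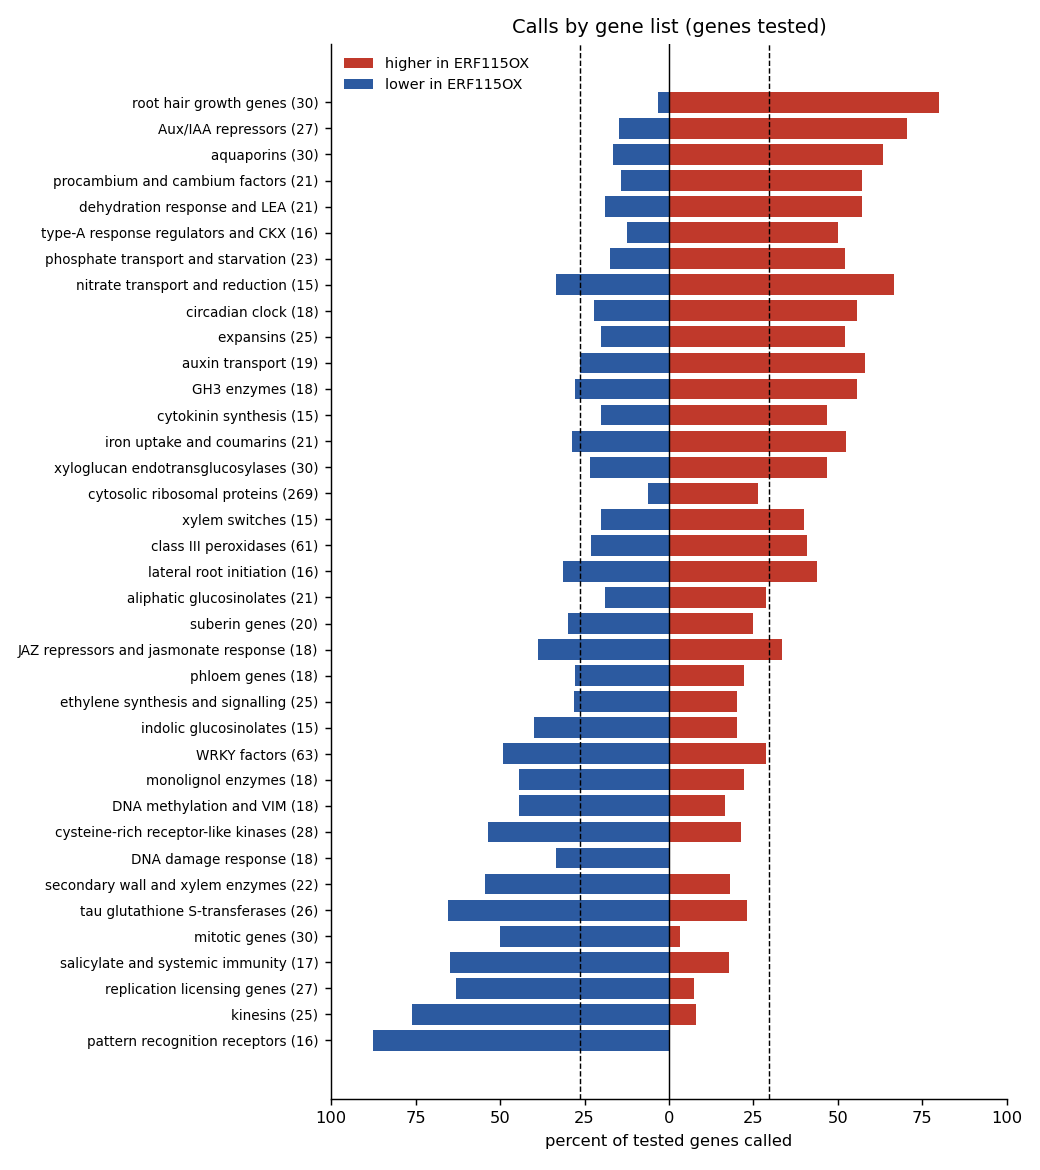
Percent of tested members called higher in ERF115OX (bars to the right) and lower (bars to the left) for 37 gene lists with at least 15 genes tested, ordered by the higher minus the lower share. The list of heat shock proteins and factors and the marker lists of cell types are not drawn. Dashed lines mark the shares over all genes tested, 29.6% higher and 26.4% lower, with root hair growth genes at the top and pattern recognition receptors and kinesins at the bottom.

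Some differences moved with green-tissue transcript and did not hold against every ERF115-SRDX library. All 30 photosynthesis genes were called higher in ERF115OX (median 3.73), but only 3 against ERF115-SRDX 2 alone (median 1.17). Of 18 genes of stomata and aerial epidermis 13 were higher, and 7 against ERF115-SRDX 2 alone. The shoot meristem gene STM had 0, 2.03 and 0 normalized counts in ERF115OX, against 0, 2.09 and 0 in ERF115-SRDX and 45.7, 11.7 and 45.8 in WT, and was not called. Root-defining markers were present in every library, and of 20 tested 8 were higher and 3 lower. Among dehydration genes, LTI65, also called RD29B, had 179, 181 and 178 in ERF115OX, against 12.1, 169 and 5.93 in ERF115-SRDX and 334, 140.5 and 128 in WT, so that ERF115-SRDX 2 lay with ERF115OX and the difference of 2.86 came to 0.08 against that library alone. RD26, by contrast, kept its difference (1.38 ± 0.11, and 1.45 against ERF115-SRDX 2 alone). Some smaller counts moved as well against ERF115-SRDX 2 alone. Among root-defining markers 0 were then lower, among Aux/IAA repressors 2 were lower, and among secondary wall and xylem genes 2 were higher. Higher calls came to 1 kinesin, 0 mitotic genes, 1 camalexin gene and 1 wall-associated kinase, and 1 gene of stomata and aerial epidermis was lower. Without ERF115-SRDX 2, 1 wall-associated kinase was higher, and 2 root-defining markers and 1 root hair bHLH gene were lower.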

How the data were processed

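Poly(A) RNA of roots was sequenced from dUTP libraries, per the labels' protocols. The submitters' processing notes name DESeq2, featureCounts, Subread (2.0.1), SAMtools (1.11), HISAT2 (2.2.1) and Trimmomatic (0.39). Not given in the sources used here were the genome build, the annotation and the strand setting. The deposited signal is a normalized count, made by the authors by dividing reads by a size factor per library. All but 1 of 454608 values came out as whole reads (tolerance 1e-06), so counts could be recovered. The 3 ERF114 libraries, taken by title, carry a genotype label that also names ERF115OX.

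From these values, log2(normalized count + 1) was fitted with limma 3.58.1 (R 4.3.3) over all 12 libraries in 4 groups, for 23375 of 37884 genes with a mean of at least 10, and called at a Benjamini-Hochberg adjusted p of 0.05, two-sided. Fold changes are on that scale, which understates low genes. Ratios and floors cover counting error only. On the reads recovered, edgeR (4.0.16) called 6709 genes higher and 6287 lower, and DESeq2 (1.42.0) 6511 higher and 6477 lower. Other pseudocounts, filters, scalings, sample sets, a replicate block and a photosynthesis covariate were tried; a fit with ERF115-SRDX 2 alone assumes that it varies like the other groups. The fit was tested on simulated data.

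Gene names came from the TAIR10.1 RefSeq table, which matched 37884 of 37884 loci. Of 1678 list names 1619 were matched to a locus; 7 wrong matches were dropped and 52 had none. Named genes were all members of the ERF group X, phytosulfokine and PAT1-branch lists, the 10 largest differences each way among called genes without overlap and a higher group mean of at least 20, the 8 each way with WT between by the smaller step, and members of the gene lists. Members and lists were chosen with earlier results of these data known.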

Additional observations from a re-analysis of the deposited data

How the results depend on the processing

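The call counts moved by more than 1.5 times under 2 alternatives only: genes higher in ERF115OX came to 3897 with the photosynthesis level as a covariate and to 4457 without ERF115-SRDX 1 and 3, and those with a log2 difference of at least 1 to 1579 with the covariate. Without ERF115-SRDX 1 and 3, 67.3% of the 13097 calls were made again in the same direction, and with the covariate 60.2%, with 19 in the opposite one. Leaving out 1 ERF115OX or ERF115-SRDX library gave from 6048 to 6677 genes higher and from 5582 to 5979 lower. Leaving out 1 WT library put WT strictly between the lines for 1811 to 2017 higher and 1651 to 1889 lower genes. With all WT libraries these were 1575 and 1402. Dropping a WT library narrows the WT range, so this count cannot fall, and its rise does not show how stable it is. On recovered reads edgeR called 6709 higher and 6287 lower genes, and DESeq2 6511 and 6477. Quantile normalization gave 6534 higher and 6428 lower. Same-numbered libraries correlated at -0.21, -0.16 and 0.10 in their deviations, so the numbers share no visible pairing, and the replicate block gave 6814 higher and 6133 lower. With the covariate, the log2 difference changed sign for CDKB2;2 (0.0707), PLT1 (0.54), BAK1 (-0.0473), CTR1 (-0.0624), BBM (0.63), LTI65 (-0.64). Without ERF115-SRDX 1 and 3, the log2 difference changed sign for CDKB2;2 (0.0669), PLT1 (0.36), BAK1 (-0.0132), CTR1 (-0.0353), BBM (0.46). With quantile normalization, the log2 difference changed sign for ETR1 (0.0217), SARD1 (-0.0337). CTR1 also changed sign with TMM scaling (-0.00248), edgeR (-0.00478), DESeq2 (-0.0172). Leaving out 1 library gave ranges that cross 0 for CDKB2;2 (-0.034 to 0.0427), STM (-0.54 to 0.53), ETR1 (-0.0876 to 0.0538), SARD1 (-0.0602 to 0.0944), PLT1 (-0.21 to 0.078), BAK1 (-0.0162 to 0.0539), CTR1 (-0.00812 to 0.0247), BBM (-0.43 to 0.0602), ERF114 (-0.26 to 2.31). None of these genes but LTI65 was called with all libraries, and PLT1 was called with the covariate. Depth limits genes near the floor of 3 reads, 2.90 to 3.18 normalized counts per library.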

Other observations

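Further gene groups differed between the lines in ways not described above. Each count from all libraries can be read against the shares over all genes tested, 29.6% higher and 26.4% lower in ERF115OX. Counts from fits with fewer ERF115-SRDX libraries belong beside the lower shares of those fits, given above with the calls over all genes. Cytosolic ribosomal proteins were mostly not called: of 269 tested, 71 were higher and 17 lower (median log2 difference 0.12), and against ERF115-SRDX 2 alone 29 were higher and 5 lower. Of 61 class III peroxidases, which cross-link walls and handle reactive oxygen, 25 were higher and 14 lower. Early flavonoid genes were higher for 6 of 10 and lower for 0, and 4 were higher and 1 lower against ERF115-SRDX 2 alone. Genes of the Casparian strip, the endodermal diffusion barrier, were seldom called, with 0 higher and 2 lower of 11, and 1 lower against ERF115-SRDX 2 alone as well as without it. Of 20 suberin genes 5 were higher and 6 lower, against 3 higher and 4 lower with ERF115-SRDX 2 alone. Of 18 circadian clock genes 10 were higher and 4 lower, against 6 higher and 4 lower with ERF115-SRDX 2 alone. Of 18 DNA methylation genes 8 were lower and 3 higher, against 2 higher and 4 lower with ERF115-SRDX 2 alone.

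Root triterpene genes went both ways. PEN3 (AT5G36150) had 142, 239.9 and 190.1 normalized counts in ERF115OX, against 14.1, 16.7 and 23.7 in ERF115-SRDX and 122, 122 and 191 in WT (3.32 ± 0.27, limma adjusted p = 3.84e-07). The thalianol synthase gene THAS1 (AT5G48010) had 12174, 13605 and 13615 in ERF115OX, against 33242, 37707 and 35054 in ERF115-SRDX and 17380.4, 18944 and 19846 in WT (-1.43 ± 0.07, adjusted p = 3.4e-09). In all, 3 of 9 triterpene genes were higher and 5 lower.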
